A study of Mus musculus with 6 samples.

Results

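MHC class I molecules are the cell surface proteins through which almost every nucleated cell shows fragments of its own proteins to cytotoxic T cells. The genes described here belong to a list of 10 that carry this pathway: the heavy chains H2-K1 and H2-D1, the light chain B2m, the peptide transporter genes Tap1 and Tap2, the loading chaperone gene Tapbp, the immunoproteasome subunits Psmb8, Psmb9 and Psmb10, and the transactivator gene Nlrc5, which was not analysed here. The members were chosen by gene symbol, from what the pathway is known to do and with their difference between the cell lines already known, so that their values are given as a description without a p-value. The 9 genes were found among 14774 genes with counts, and all 9 passed the filter on low counts that left 11939 genes for testing.

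The counts came from bulk RNA sequencing of 6 libraries of mouse cells, 3 of MA-10 and 3 of STARKO1. MA-10 is an established line of mouse tumor Leydig cells, the steroid-making cells of the testis, and was grown here as the wild type without treatment. STARKO1 is a line grown from 1 sorted MA-10 cell after CRISPR/Cas9 cutting of exon 2 of Star with a pair of guide plasmids, and was also untreated. Star encodes the protein that delivers cholesterol to the mitochondrion for steroid synthesis. Since STARKO1 is 1 clone set against a parental population, loss of Star and any other feature of that clone cannot be told apart. The labels do not say whether the 3 libraries of a line came from separate cultures, so p-values measure the spread between these libraries, which may be technical. A lower bulk level can be fewer expressing cells or less RNA per cell, and these cannot be told apart.

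In the class I pathway the immunoproteasome, a form of the proteasome with exchanged catalytic subunits, cuts proteins into peptides that suit class I molecules. The transporter made of TAP1 and TAP2 moves the peptides into the endoplasmic reticulum, where tapasin, the product of Tapbp, holds the transporter close to a heavy chain bound to beta-2 microglobulin until a peptide is loaded. The genes are known to answer to interferon gamma and, for the heavy chains and B2m, to share an upstream promoter module on which NLRC5 acts.

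Library totals ran from 14114351 to 19530062 counts, and a gene's level was scaled to the same library total throughout (CPM), with library sizes adjusted by the trimmed mean of M values (TMM). Star, the targeted gene, had 1064, 1261 and 697 counts in MA-10 replicates 1 to 3 and 48, 46 and 36 in the STARKO1 replicates, a log2 fold change of -5.09 (SE 0.331, adjusted p = 0.00121, edgeR quasi-likelihood test with Benjamini-Hochberg adjustment over all tested genes). MA-10 replicate 1 stood apart from the other MA-10 libraries. Across genes its log2 CPM correlated with MA-10 replicates 2 and 3 at a Pearson r of 0.802 and 0.874 and with the STARKO1 libraries at 0.949 to 0.955, while MA-10 replicates 2 and 3 correlated at 0.974. The 7SL RNA, the RNA of the signal recognition particle, took 1.81% of the counts in MA-10 replicate 1, 14.4% and 6.63% in replicates 2 and 3, and 1.82% to 2.37% in STARKO1. The values of each class I gene in MA-10 replicate 1 are therefore given beside its result; the part of that library, or of the 7SL share, in the results was not tested.

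The heavy chain genes fell in STARKO1, by more than any other gene of the pathway described here. H2-K1, which encodes the classical class I heavy chain K, had 24.7, 21.2 and 23.95 CPM in MA-10 replicates 1 to 3 and 3.66, 2.83 and 3.03 CPM in STARKO1. These were 431, 245 and 272 counts against 85, 48 and 54. Every MA-10 library was above every STARKO1 library, and MA-10 replicate 1 was no exception. The means were 23.3 ± 1.81 CPM and 3.17 ± 0.431 CPM (SD, n = 3 each), a log2 fold change of -2.87 (SE 0.186), which is 7.31-fold lower. H2-D1, the heavy chain D gene, had 6.99, 15.2 and 15.1 CPM in MA-10 and 2.37, 2.18 and 2.81 CPM in STARKO1. The groups did not overlap either, although MA-10 replicate 1 had less H2-D1 than the other MA-10 libraries, with a log2 difference of -1.12 from their mean. The means were 12.4 ± 4.72 CPM and 2.45 ± 0.323 CPM (SD, n = 3 each), a log2 fold change of -2.33 (SE 0.345), which is 5.04-fold lower.

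H2-K1 and H2-D1 were the members called between the lines at an adjusted p under 0.05, that is 2 of 9, both lower in STARKO1. Across all tested genes 9.04% were called, 4.30% higher and 4.74% lower in STARKO1. The members had been picked with this contrast known, so nothing is read from their share. Their calls, here and below, describe the fits and are not support for a difference. Of the called genes 47.5% were higher in STARKO1, a share that was 63.6% when libraries were scaled by their totals alone. H2-K1 was called in all 6 fits that each left out 1 library. These fits called 89 to 7990 genes, the most, 7990 of 12167, without MA-10 replicate 1. H2-D1 was called in 2 of the 6, those without MA-10 replicate 1 and without MA-10 replicate 2, and lost the call without MA-10 replicate 3 or without any 1 of the STARKO1 libraries, with log2 fold changes of -2.54 to -2.16 over the 6 fits. Set against MA-10 replicate 1 alone, the log2 difference was -2.96 for H2-K1 and -1.51 for H2-D1.

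The light chain gene B2m was the next member below the called ones. It had 96.7, 248 and 206 CPM in MA-10 and 79.9, 75.4 and 72.5 CPM in STARKO1, from 1279 to 2861 counts a library. Every MA-10 library was higher, but MA-10 replicate 1 lay far closer to the STARKO1 libraries than to MA-10 replicates 2 and 3, from whose mean it differed by -1.23 on the log2 scale. The means were 184 ± 78.1 CPM and 75.9 ± 3.75 CPM (SD, n = 3 each), a log2 fold change of -1.27 (SE 0.339). B2m was not called with all libraries, was called without MA-10 replicate 1 at a log2 fold change of -1.49, and differed from MA-10 replicate 1 alone by -0.35. The fit without MA-10 replicate 1 called most genes, 7990 of 12167 tested. With all libraries H2-D1 was thus called and B2m was not, which is a description only.

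The transporter and tapasin genes did not follow the heavy chains, and their libraries overlapped between the lines. Tap1 had 35.3, 16.1 and 14.0 CPM in MA-10 and 22.9, 26.2 and 25.7 CPM in STARKO1, a log2 fold change of 0.19 (SE 0.355). Tap2, its partner in the transporter, had 60.8, 30.7 and 37.1 CPM in MA-10 and 47.9, 45.0 and 53.9 CPM in STARKO1, a log2 fold change of 0.19 (SE 0.270). In both genes MA-10 replicate 1 held the highest value of all 6 libraries and MA-10 replicates 2 and 3 the lowest. Tapbp had 59.1, 28.4 and 28.0 CPM in MA-10 and 57.0, 53.4 and 62.7 CPM in STARKO1, a log2 fold change of 0.58 (SE 0.314). Here too MA-10 replicate 1 stood with the STARKO1 libraries. None of the 3 was called with all libraries. Each was called when MA-10 replicate 1 was left out, at log2 fold changes of 0.82 for Tap1, 0.62 for Tap2 and 1.12 for Tapbp. Most tested genes, 7990 of 12167, were called in that fit. Against MA-10 replicate 1 alone the differences were -0.50, -0.31 and -0.03.

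The immunoproteasome genes had higher means in STARKO1 than in MA-10, with smaller differences than those of the heavy chains, and none was called. Psmb8, which encodes the inducible chymotrypsin-like subunit, had 34.5, 41.0 and 37.1 CPM in MA-10 and 46.8, 49.7 and 46.9 CPM in STARKO1. The lines did not overlap, MA-10 replicate 1 lay close to the other MA-10 libraries, and the log2 fold change was 0.35 (SE 0.145). Psmb9, the gene of another inducible subunit, had 5.73, 5.29 and 4.67 CPM in MA-10 and 5.94, 6.54 and 7.25 CPM in STARKO1, a log2 fold change of 0.33 (SE 0.192). The lines again did not overlap, though the nearest libraries were close. Psmb10, the inducible trypsin-like subunit gene, had 5.50, 14.8 and 10.9 CPM in MA-10 and 12.8, 13.9 and 15.5 CPM in STARKO1, a log2 fold change of 0.44 (SE 0.346). Its libraries overlapped, and MA-10 replicate 1 held the lowest value. Without MA-10 replicate 1, Psmb8 and Psmb9 were called, at 0.38 and 0.49, and Psmb10 was not, at 0.21. That fit called 7990 of 12167 tested genes.

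**Figure D1:**
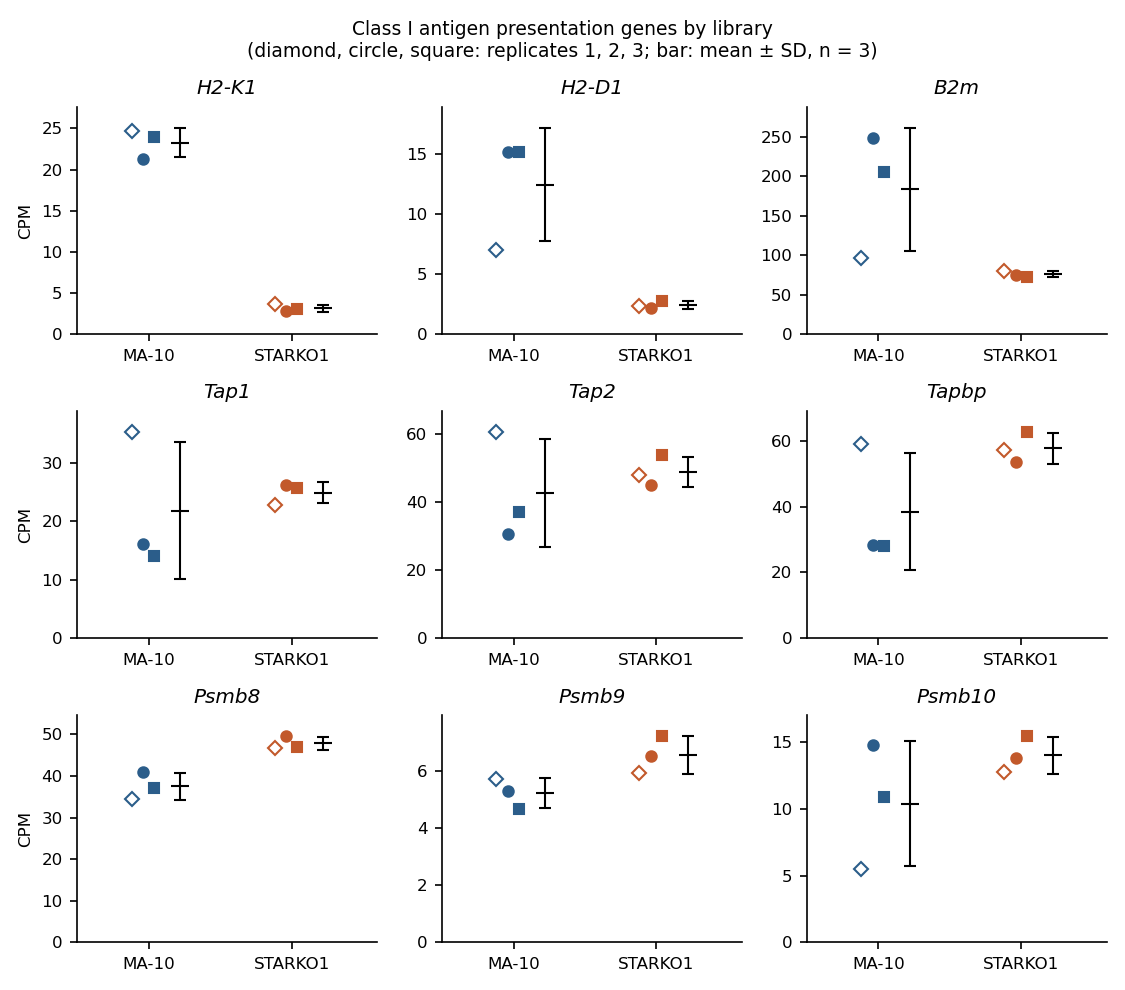
Level of each class I gene in CPM (y axis, linear from 0, a separate range for each gene) in the 3 MA-10 libraries (blue) and the 3 STARKO1 libraries (orange). Diamonds, circles and squares are replicates 1, 2 and 3, and the black bars give the mean and SD. H2-K1, H2-D1 and B2m are lower in every STARKO1 library, and the open MA-10 diamond sits away from the other MA-10 points for most genes.

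Of the 9 members, 5 had libraries that did not overlap between the lines, H2-K1, H2-D1 and B2m lower in STARKO1 and Psmb8 and Psmb9 higher. Across all tested genes 42.5% did not overlap. The median log2 fold change of the 9 members was 0.19, beside -0.05 over all tested genes, and fold changes of both signs lay among the members. The scalings that were run moved the median of all genes by 0.43 at most, when libraries were scaled by totals alone. With that scaling the log2 fold change was -2.45 for H2-K1 and -1.80 for H2-D1. The part of scaling in the results was not tested further.

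**Figure D2:**
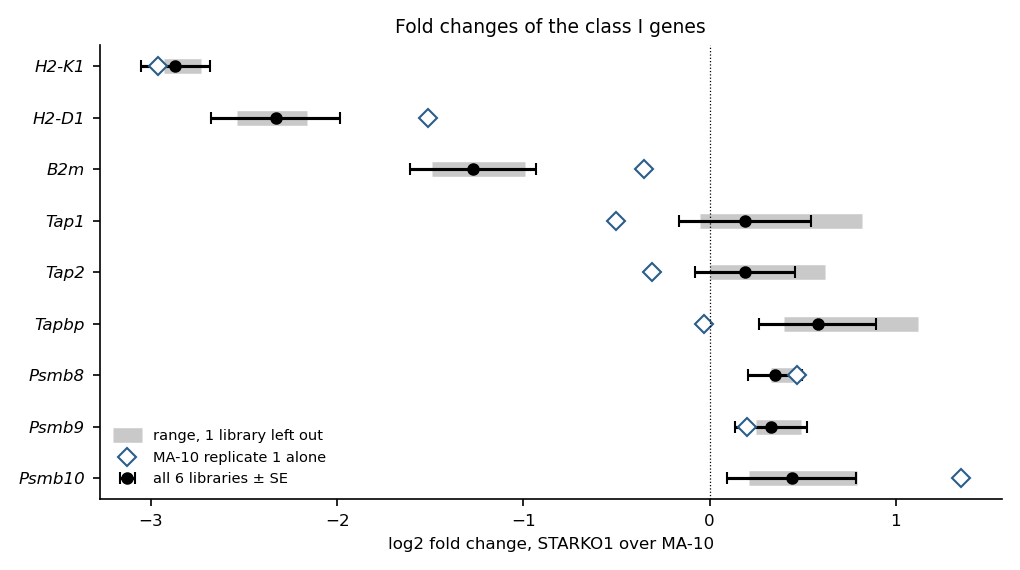
Log2 fold change of STARKO1 over MA-10 for each class I gene (x axis). Black points with bars are the estimate and SE from all 6 libraries, grey bands the range when 1 library at a time was left out, and open diamonds the difference from MA-10 replicate 1 alone. H2-K1 keeps its place near -2.87 in all of them, while the diamonds for H2-D1, B2m, Tap1, Tap2, Tapbp and Psmb10 lie outside the SE.

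MA-10 replicate 1 differed from the mean of MA-10 replicates 2 and 3 in opposite directions for different members. On the log2 scale it was higher by 1.23 for Tap1, 1.07 for Tapbp and 0.84 for Tap2. It was lower for B2m and Psmb10, each at -1.23, and for H2-D1 at -1.12, and close for H2-K1 at 0.13, Psmb9 at 0.20 and Psmb8 at -0.18. The merged exons of the 3 members that were higher are 5476, 3628 and 3781 bases long, and those of B2m, Psmb10 and H2-D1 are 860, 1705 and 2579 bases. Those of H2-K1, Psmb9 and Psmb8, which were close, are 2938, 3660 and 3381 bases long, so Psmb9 was longer than Tapbp without its difference. The part of gene length was not tested. Allowing for gene length in the scaling left every member's fold change within 1 SD of its value.

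Set per kilobase of merged exon, the level of B2m was the highest in both lines, and the heavy chains moved to the foot of the order. In MA-10 the mean levels were 213 CPM per kb for B2m, 11.3 for Tap2, 11.1 for Psmb8, 10.6 for Tapbp, 7.93 for H2-K1, 6.11 for Psmb10, 4.82 for H2-D1, 3.99 for Tap1 and 1.43 for Psmb9. In STARKO1 they were 88.3 for B2m, 15.9 for Tapbp, 14.1 for Psmb8, 12.9 for Tap2, 8.24 for Psmb10, 4.55 for Tap1, 1.80 for Psmb9, 1.08 for H2-K1 and 0.951 for H2-D1. The MA-10 neighbours Tap2, Psmb8 and Tapbp did not differ beyond their spread, nor did H2-K1 and H2-D1 from each other in STARKO1. H2-K1 and H2-D1 lay above Psmb9 in MA-10 and below it in STARKO1, also when the length of the longest transcript was used in place of merged exons.

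**Figure D3:**
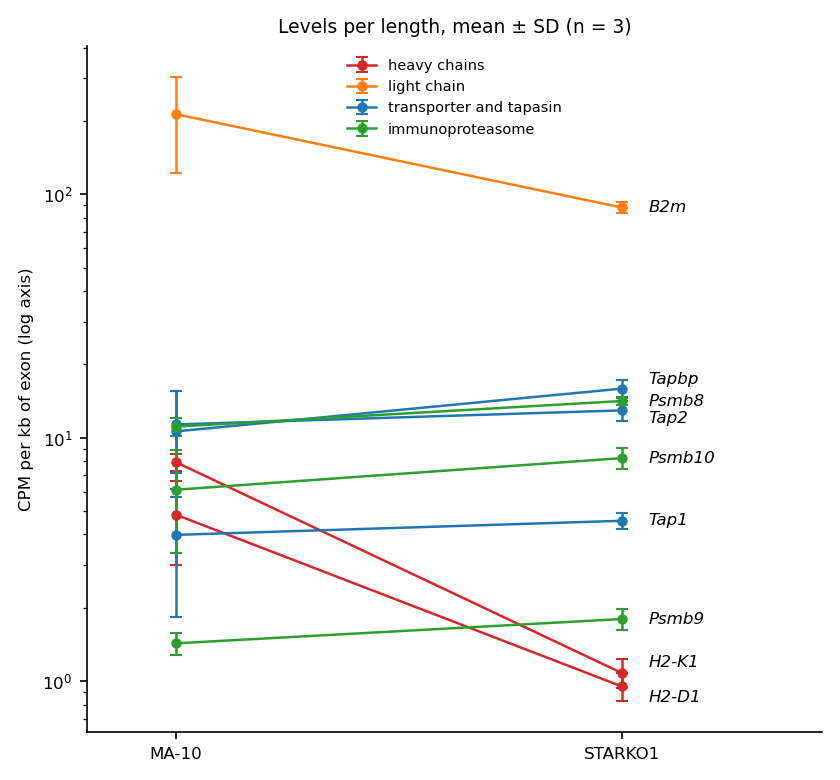
Mean level per kilobase of merged exon in MA-10 and STARKO1 (y axis, CPM per kb on a log axis), with SD over 3 libraries. The line of H2-K1 crosses those of Psmb10, Tap1 and Psmb9 and that of H2-D1 those of Tap1 and Psmb9, while B2m stays above all others.

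Ratios of counts within a library do not depend on how libraries were scaled. H2-K1 and H2-D1 together were 32.7%, 14.7% and 19.0% of the B2m count in MA-10 replicates 1 to 3 and 7.54%, 6.65% and 8.06% in the STARKO1 replicates. The lines did not overlap, and the means were 22.2% ± 9.43 and 7.42% ± 0.716 (SD, n = 3 each). The heavy chain counts were thus lower relative to those of their light chain, and MA-10 replicate 1 held the highest ratio. The ratio of H2-K1 to H2-D1 counts was 2.17 ± 1.18 in MA-10 and 1.31 ± 0.232 in STARKO1, with overlapping libraries, and the highest ratio, 3.53, was that of MA-10 replicate 1. Tap1 counts were 49.5% ± 10.5 of Tap2 counts in MA-10 and 51.2% ± 6.09 in STARKO1. The libraries overlapped in this ratio of the transporter's subunit genes.

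Each immunoproteasome subunit takes the place of a constitutive one, Psmb8 that of Psmb5, Psmb9 that of Psmb6 and Psmb10 that of Psmb7. Psmb8 counts were 30.1%, 18.8% and 20.9% of Psmb5 counts in MA-10 and 51.7%, 54.1% and 45.4% in STARKO1. The lines did not overlap, and the mean ratio was 23.3% ± 6.02 and 50.4% ± 4.51. The constitutive gene Psmb5 had 170 ± 52.4 CPM in MA-10 and 95.2 ± 7.02 CPM in STARKO1, a log2 fold change of -0.84 that was not called (edgeR adjusted p = 0.0735). Psmb9 counts were 6.12% ± 0.873 of Psmb6 counts in MA-10 and 5.28% ± 0.397 in STARKO1, with overlap between the lines. Psmb10 counts were 1.38% ± 0.367 and 1.89% ± 0.207 of Psmb7 counts, also with overlap. Psmb6 and Psmb7 had log2 fold changes of 0.52 and 0.04, neither called (edgeR adjusted p = 0.109 and 0.91).

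**Figure D4:**
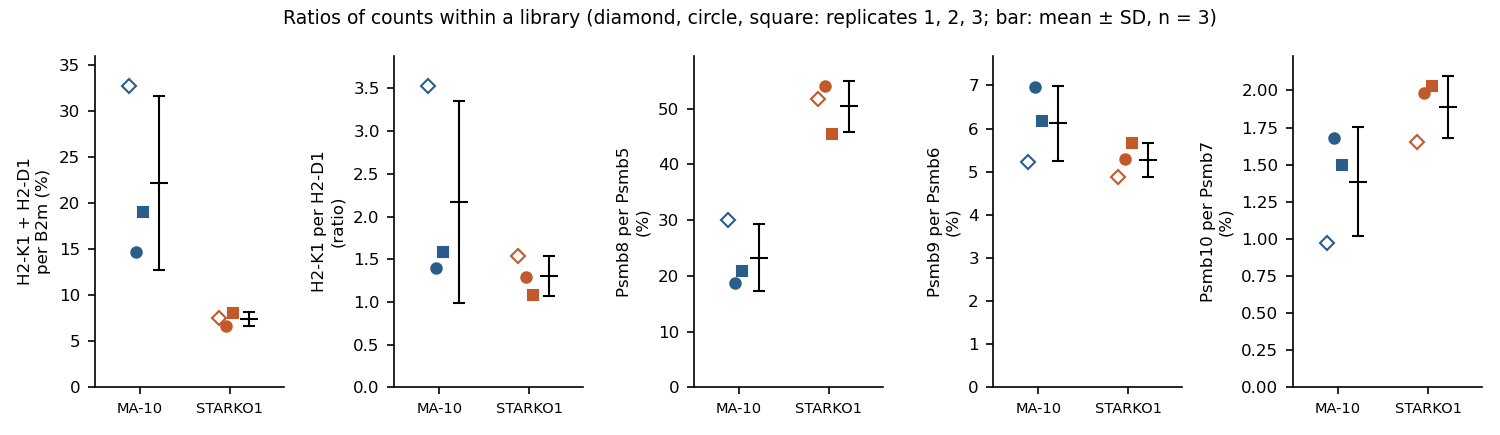
Ratios of counts within each library (y axes, percent or plain ratio, linear from 0): heavy chains per B2m, H2-K1 per H2-D1, and each immunoproteasome subunit per its constitutive counterpart. Diamonds, circles and squares are replicates 1, 2 and 3, and bars are the mean and SD of 3 libraries. The heavy chain share per B2m and the Psmb8 share per Psmb5 do not overlap between MA-10 and STARKO1.

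H2-K1 and H2-D1 lie on chromosome 17 of the GRCm38 assembly at 33996017 to 34000347 and 35262730 to 35267499, far apart in the MHC region. Tapbp (33915899 to 33929292) lies before H2-K1, and between the heavy chain genes lie Psmb9 (34181987 to 34187764), Tap1 (34187553 to 34197225), Psmb8 (34197721 to 34201454) and Tap2 (34203527 to 34216321). B2m is on chromosome 2 at 122147686 to 122153083 and Psmb10 on chromosome 8 at 105935735 to 105938444. The heavy chain genes resemble other class I genes of the region, so reads can be shared between them. Of all 50-base stretches of the GENCODE transcripts, 9.63% for H2-K1 and 12.8% for H2-D1 were also in the transcripts of another gene, H2-Q10 and H2-Q1 sharing the most. How such reads were counted is not given, so their part in the heavy chain counts was not tested. All counts of H2-K1 were whole numbers, and H2-D1 had a count that was not whole in STARKO1 replicate 1. Tap1, from 34187553, and Psmb9, up to 34187764, overlap on opposite strands, and whether counting used the strand is not given in the sources used here.

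The promoter windows of 8 of the 10 members were matched by symbol in RefSeq (GRCm38.p6), Tap2 and Nlrc5 being without a window. The stretches printed here run 5′ to 3′ on the strand of the gene and end at the base before its RefSeq start, or for the last one between the RefSeq starts. The RefSeq start of H2-K1 matches the outermost GENCODE end given above, and that of B2m lies beside it. Other RefSeq starts differ more, and that of H2-D1 lies inside its GENCODE span. The first 3 belong to the heavy chain genes and B2m, which are known to share an upstream promoter module. Shared letters in them were therefore known beforehand and are not a result of these counts. Whether the letters bear on the levels was not tested. Capitals mark TGACG, the core of the cyclic AMP response element, ATTGG and its reverse complement CCAAT, the box known to be bound by NF-Y, and GGGGATTCC, a kappa B sequence of the type bound by NF-kappa B. The H2-K1 stretch is chr17:34000348-34000527 (minus strand), the H2-D1 stretch chr17:35262914-35263093 (plus strand) and the B2m stretch chr2:122147507-122147686 (plus strand). The last line, chr17:34187331-34187555 (plus strand), is the stretch between Psmb9 and Tap1, which are transcribed away from each other from RefSeq starts 226 bases apart, although their GENCODE spans overlap.
H2-K1: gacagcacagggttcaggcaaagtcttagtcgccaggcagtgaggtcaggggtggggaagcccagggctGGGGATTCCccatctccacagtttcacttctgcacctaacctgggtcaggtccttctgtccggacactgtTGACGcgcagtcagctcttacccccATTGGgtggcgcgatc
H2-D1: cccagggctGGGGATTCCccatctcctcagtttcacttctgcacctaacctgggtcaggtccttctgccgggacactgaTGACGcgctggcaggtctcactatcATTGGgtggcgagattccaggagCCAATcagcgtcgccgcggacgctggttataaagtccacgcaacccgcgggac
B2m: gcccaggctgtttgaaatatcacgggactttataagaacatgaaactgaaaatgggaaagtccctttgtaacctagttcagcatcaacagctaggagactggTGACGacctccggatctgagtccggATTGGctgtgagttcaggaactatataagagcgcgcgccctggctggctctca
Psmb9 to Tap1: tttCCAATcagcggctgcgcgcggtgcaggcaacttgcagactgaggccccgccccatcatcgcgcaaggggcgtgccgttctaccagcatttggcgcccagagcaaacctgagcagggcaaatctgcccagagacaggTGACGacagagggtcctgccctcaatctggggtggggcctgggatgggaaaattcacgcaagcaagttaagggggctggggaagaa

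In H2-K1, H2-D1 and B2m, TGACG was followed by ATTGG with exactly 20 bases between them, beginning 41, 101 and 78 bases before the RefSeq start. The windows of Tap1, Tapbp, Psmb8, Psmb9 and Psmb10 held no such pair on either strand with 15 to 25 bases between. Of the 27025 genes with a RefSeq window, searched over 250 bases before the start on both strands, 19.8% held TGACG, 37.5% held ATTGG and 116, or 0.429%, held the pair. GGGGATTCC was in 0.255% of genes, among them H2-K1 and H2-D1. The pair is a description of these letters, and binding to them was not measured here. Outside the members, 74 genes with the pair were tested, and 6 of them, or 8.11%, were called, 3 higher (Avpr1a, Med27 and Ogfod1) and 3 lower (Crebrf, Hspb6 and Strbp), a share near the background of all tested genes. Their median log2 fold change was -0.21.

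Other genes of the class I pathway were mostly not called. Of 43 such genes, among them the nonclassical class I genes, further proteasome and chaperone genes and peptide trimming enzymes, 28 had counts, 27 were tested and 2, or 7.41%, were called, both lower in STARKO1. The share called over all tested genes was 9.04%. The median log2 fold change of the 27 was -0.07. Cd1d1, a class I-like gene whose product presents lipids, had 1.496 ± 0.108 CPM in MA-10 and 0.362 ± 0.136 CPM in STARKO1 (log2 fold change -2.03, SE 0.363, edgeR adjusted p = 0.0251). Fcgrt, the gene of the neonatal Fc receptor heavy chain, which also pairs with beta-2 microglobulin, had 18.9 ± 1.23 and 11.4 ± 0.758 CPM (log2 fold change -0.73, SE 0.154, edgeR adjusted p = 0.0369). H2-T22, a nonclassical heavy chain gene on chromosome 17, was chosen after its values were seen. It was at 30.3 ± 9.06 CPM in MA-10 and 30.6 ± 3.38 CPM in STARKO1 (log2 fold change 0.01, edgeR adjusted p = 0.98). Within libraries H2-K1 counts were 80.3% ± 17.5 of H2-T22 counts in MA-10 and 10.4% ± 0.606 in STARKO1, and H2-D1 counts were 46.2% ± 26.3 and 8.05% ± 0.968. H2-T23, another nonclassical gene chosen after its values were seen, was lower in every STARKO1 library, at 16.1 ± 4.78 and 9.23 ± 0.814 CPM, and was not called (log2 fold change -0.79, edgeR adjusted p = 0.0757).

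The regulators of class I genes gave a similar count, again beside 9.04% called over all tested genes. Of 27 genes, which included interferon receptors, Janus kinases, IRF factors, subunits of NF-kappa B and the RFX and NF-Y factors, all 27 were tested and 2, or 7.41%, were called, both lower in STARKO1, with a median log2 fold change of -0.11. Ifngr1, the ligand-binding chain of the interferon gamma receptor, fell from 14.2 ± 1.55 to 8.62 ± 0.314 CPM (log2 fold change -0.71, SE 0.165, edgeR adjusted p = 0.0457). Jak2, a kinase that signals from this receptor, fell from 32.5 ± 1.53 to 18.9 ± 2.53 CPM (log2 fold change -0.78, SE 0.163, edgeR adjusted p = 0.036).

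Interferon-stimulated genes outside the pathway had calls in both directions, 3 higher and 1 lower in STARKO1. Across all tested genes 9.04% were called, and with so few called genes nothing is read from the share of this list. Of 46 listed, 30 had counts, 24 were tested and 4, or 16.7%, were called, with a median log2 fold change of 0.23. Higher in STARKO1 were Dhx58, an RNA sensor of the RIG-I family, from 10.1 ± 2.89 to 23.1 ± 0.697 CPM (log2 fold change 1.18, edgeR adjusted p = 0.0314), Parp9, an ADP-ribosyltransferase, from 10.4 ± 2.14 to 21.4 ± 0.578 CPM (1.04, 0.0264), and Samd9l from 2.64 ± 0.475 to 6.96 ± 1.27 CPM (1.39, 0.0256). Isg15, a ubiquitin-like modifier, was lower, from 2.56 ± 1.04 to 0.764 ± 0.179 CPM (log2 fold change -1.71, edgeR adjusted p = 0.0494). It was the only gene of the list called as lower, and none was called as lower with upper quartile scaling, with no filter or without the 50 most abundant genes, which each gave 4 higher, or with at least 10 counts, which gave 3 higher. When 1 library at a time was left out, Cd1d1, Fcgrt, Ifngr1, Jak2, Isg15, Parp9 and Samd9l stayed called only without MA-10 replicate 1, and Dhx58 without MA-10 replicate 1 or 2. They were lost in the fits without any other library, STARKO1 libraries included. The fit without MA-10 replicate 1 called 7990 of 12167 tested genes.

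**Figure D5:**
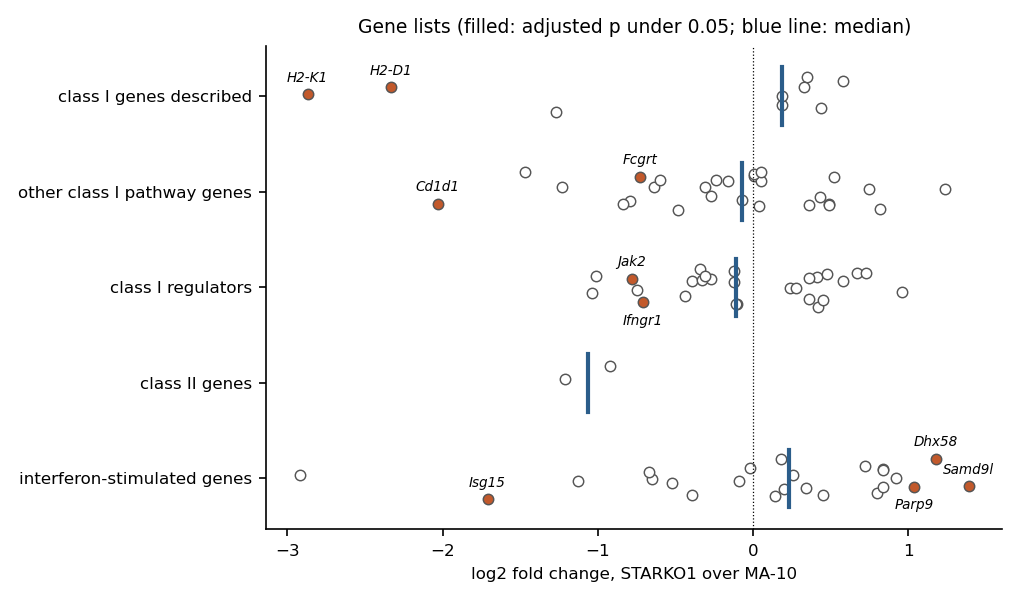
Log2 fold change of STARKO1 over MA-10 (x axis) for every tested gene of 5 lists (rows): the class I genes described here, other class I pathway genes, class I regulators, class II genes and interferon-stimulated genes. Filled points are genes called at an adjusted p under 0.05, blue lines are list medians and the vertical position within a row has no meaning. H2-K1 and H2-D1 lie to the left of every other gene called in these 5 lists, and their medians lie between -1.07 for class II genes and 0.23 for interferon-stimulated genes.

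The chromosomal neighbours of the class I genes had calls in both directions, at a share near the 9.04% of all tested genes. Between the outermost members on chromosome 17, from Tapbp to H2-D1, 59 genes that are not members had counts, 45 were tested and 4, or 8.89%, were called, D17H6S53E and Wdr46 higher at log2 fold changes of 1.07 and 0.79, and Nelfe and Zbtb12 lower at -0.69 and -1.41. Their median log2 fold change was -0.50, lower than the -0.05 of all tested genes. When 1 library at a time was left out, Wdr46 stayed called without MA-10 replicate 1 or 2 and the other 3 only without MA-10 replicate 1. The fit without MA-10 replicate 1 called 7990 of 12167 tested genes.

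Class II genes, which professional antigen presenting cells use, had low counts. Of 12, 2 had counts and were tested, Cd74 and H2-DMa (named after their values were seen), with 7 to 53 counts a library and summed levels of 2.602 to 5.02 CPM in MA-10 and 1.42 to 2.15 CPM in STARKO1. Neither was called by edgeR or DESeq2, and 1 had an unadjusted edgeR p under 0.05, as did 4493 of all 11939 tested genes. Leukocytes carry high class I levels, and of 16 leukocyte markers 5 had counts, with summed levels of 7.75 to 10.5 CPM in MA-10 and 7.19 to 9.59 CPM in STARKO1. Most of the sum was Csf1r, at a mean of 6.75 CPM in MA-10 and 7.61 CPM in STARKO1. The others were too low to be tested and went in different directions, Fcer1g at 1.41 and 0.292 CPM, Cd68 at 0.261 and 0.0474, Cd14 at 0.279 and 0.197 and Cd52 at 0.116 and 0.316. These markers were named after their values were seen. The 1 that was tested, Csf1r, was not called by edgeR or DESeq2, and 0 of the leukocyte markers had an unadjusted edgeR p under 0.05. Ptprc, the general leukocyte marker, was not analysed here. The part of leukocytes in the class I results was not tested. Of 8 endothelial and fibroblast markers 3 were tested and 2 were called, beside 9.04% of all tested genes. With so few genes nothing is read from this share. Cdh5, the vascular cadherin gene, rose from 33.8 ± 7.61 to 121 ± 3.01 CPM (log2 fold change 1.84). Pdgfra fell from 5.12 ± 2.07 to 0.058 ± 0.059 CPM (log2 fold change -6.42), with 0 to 2 counts in the STARKO1 libraries. All 8 Leydig cell markers were tested and 1, or 12.5%, was called, again beside 9.04% of all tested genes. It was Hsd3b1, a steroidogenic dehydrogenase gene, which fell from 29.8 ± 6.67 to 5.19 ± 0.503 CPM (log2 fold change -2.52). The summed level of the 8 markers was 1499 to 1988 CPM in MA-10 and 1405 to 1455 CPM in STARKO1. Leydig cell markers were thus found in all 6 libraries. The sum hides moves in both directions. Libraries did not overlap for Nr5a1 and Cyp17a1, higher in STARKO1, and for Cyp11a1, Hsd3b1 and Lhcgr, lower. Across all tested genes 42.5% did not overlap, and the Leydig markers that were not called were named after their values were seen. The part of Cdh5-expressing or Hsd3b1-expressing cells in the class I results was not tested.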

How the data were processed

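Total RNA libraries (stranded low-input kit) of 3 MA-10 and 3 STARKO1 samples were sequenced. The values the authors deposited are estimated counts, and 54.2% of genes held a value that was not whole in some library. STAR 2.6.1d, Partek and the mm10 build are named in the submitters' processing notes, without their roles, and the counting program is not given in the sources used here. Counts were rounded, filtered with filterByExpr, scaled by TMM and tested by edgeR 4.0.16 quasi-likelihood tests (R 4.3.3) with Benjamini-Hochberg adjustment over 11939 genes, calls at adjusted p under 0.05. The pipeline was checked on simulated counts with a common dispersion and no library set apart, unlike these data. It called 99% of simulated 4-fold changes and 18.2% of 2-fold changes, and 5.79% of its calls were false. A gene that was not called may therefore still differ by 2-fold or more, and the simulation sets no upper bound for these data. B2m, 2.42-fold lower in STARKO1, was not called. Exonic lengths came from GENCODE M21, matched for 14677 of 14774 genes. Members and gene lists were chosen with earlier results of these data known. Named are every member, the called genes of each list, ratio partners and Star, and others are marked as chosen after their values were seen. Alternatives were DESeq2 1.42.0, other scalings and filters, gene length offsets, a replicate block, unrounded counts, each library left out and, added after seeing the data, MA-10 replicate 1 alone. A count of 3, the floor used here, is up to 0.264 CPM in MA-10 and 0.177 in STARKO1, which covers counting error only.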

Additional observations from a re-analysis of the deposited data

How the results depend on the processing

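H2-K1, H2-D1, B2m, Psmb8, Psmb9 and Psmb10 kept their direction under every alternative, while the uncalled Tap1, Tap2 and Tapbp changed sign against MA-10 replicate 1 alone (-0.50, -0.31 and -0.03), and Tap1 without MA-10 replicate 3 (-0.05). Of the 153 alternative fold changes 144 moved by less than 1 SD. The 9 others were H2-K1 at -2.45, Psmb8 at 0.81 and Psmb9 at 0.75 with library totals as the scaling, Psmb8 at 0.50 with the upper quartile, Psmb9 at 0.49 without MA-10 replicate 1 and at 0.48 without STARKO1 replicate 1, and H2-D1 at -1.51, B2m at -0.35 and Psmb10 at 1.35 against MA-10 replicate 1 alone. The 1079 genes called became 3385 with DESeq2 and 695 of 10785 with at least 10 counts a gene. Scaling by library totals gave 330 and moved the median of all genes by 0.43. A replicate block gave 234, and the block with length offsets gave 269. Fits without 1 library gave 89 to 7990, the most, 7990 of 12167, without MA-10 replicate 1. DESeq2 called 9 of 28 other class I genes, 5 of 27 regulators and 12 of 30 interferon-stimulated genes. It called 21 of 59 neighbours on chromosome 17 and 6 of 16 markers, beside 3385 of all 14774 genes. With the replicate block, alone or with length offsets, and with library totals, 0 class I pathway genes, regulators, interferon-stimulated genes and neighbours were called. Class I pathway genes called were 1 with the count minimum, length offsets or no filter. Regulators called were 1 with the count minimum, length offsets or without the 50 most abundant genes, and 0 with no filter or the upper quartile. Over all genes, length offsets called 1169 of 11884 and no filter 947 of 14774. The upper quartile called 829 of 11939, and the fit without the 50 most abundant genes 1010 of 11897. Leaving out 1 library gave 0 to 15 class I pathway genes, 0 to 17 regulators, 0 to 1 class II genes, 0 to 16 interferon-stimulated genes, 0 to 35 neighbours and 2 to 9 markers, the highest without MA-10 replicate 1. The cause of these moves was not tested. Same-numbered libraries did not deviate together (correlations -0.0165, 0.0455 and 0.0201). The labels do not say whether they were prepared in pairs. These correlations cannot settle it, since MA-10 replicate 1 stands apart from its group. Why calls were lost under the block was not tested. With 3 libraries a line and 1 of them apart, the spread of MA-10 limits the estimates.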
